A study of Homo sapiens with 12 samples.

Results

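The cytosolic ribosomal protein genes encode the protein subunits of the ribosome that works in the cytoplasm. Members were taken as protein-coding genes whose symbol is RPL or RPS followed by a number, with or without the endings A, X, L, AL or L1, together with RPLP0, RPLP1, RPLP2 and RPSA. Kinases of the RPS6K family, RPS4Y genes, RPS27L and RPL7L1 were left out. This gave 83 of the 57992 genes of the count table, 52 of the large and 31 of the small subunit. Of these, 77 are core genes and 6 are further copies (RPL3L, RPL10L, RPL22L1, RPL26L1, RPL36AL and RPL39L). The rule used gene symbols and gene type and no expression values, but it was set with earlier results of these data known.

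The study sequenced poly(A) RNA from human prostate adenocarcinoma lines to compare cells sensitive and resistant to enzalutamide, a drug that blocks the androgen receptor. LNCaP, the androgen-responsive parent line, and C4-2, its castration-resistant subline, are labelled sensitive. MR49F, a derivative of LNCaP, is labelled resistant. Each line had 3 libraries, stated by the submitters to be biological replicates. The labels give no drug, dose or time of culture for the sequenced cells, and each line is a single cultured population. A difference between lines therefore cannot be read as a response to treatment. Whether drug in the culture had a part is not known and was not tested. The resistant line C4-2R was not analysed here.

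Ribosomal proteins assemble on ribosomal RNA in the nucleolus, and most are present once in each ribosome. Their messages usually begin with a cytidine and a run of pyrimidines, the terminal oligopyrimidine tract, through which mTOR signalling and the protein LARP1 control their translation and stability. MYC and mTOR are known to promote ribosome production in cancer cells, those of the prostate included. Messenger RNA levels do not show how much protein or how many ribosomes were made.

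Library totals ranged from 6990461 to 9375912 counts in 8 libraries, and C4-2 replicate 1 had 42770072. That library also stood apart in the genes described here: its CPM (counts scaled to a common library size) was above both other C4-2 libraries for 77 of 81 members, by a median of 0.36 on the log2 scale. In LNCaP and MR49F the largest such offset was 0.0868, in LNCaP replicate 2. All 8 luminal prostate markers were detected in every line, with summed levels of 5717 to 5878 CPM in LNCaP, 8365 to 8607 in MR49F and 6901 to 7934 in C4-2. Summed immune markers did not exceed 0.43 CPM in any library, with CD3E at 0 in all. Summed fibroblast markers were at 23.6 to 27.7 CPM in LNCaP, 5.69 to 5.94 in MR49F and 14.4 to 19.6 in C4-2, nearly all from COL1A1, with COL1A2 at 0 in every library; 1 of the 3 had counts in LNCaP and 2 of 3 in each derivative. Summed endothelial markers, mostly VWF (1 of 2 had counts in LNCaP and 2 of 2 in each derivative), were at 3.29 to 4.83, 0.475 to 0.576 and 2.58 to 3.29 CPM in the same order. The part of these marker differences in the results was not tested. In bulk RNA of this kind, fewer cells of a type and less RNA per cell cannot be told apart.

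The starts of the genes that the results turn on are shown here as 10 bases before and 20 bases from the annotated RefSeq start (GRCh38.p14), read 5′ to 3′ on the strand of the gene. Capitals mark the unbroken run of C and T that includes the start, and a sequence with no capitals does not start with C or T. The first 6 lie at genes that were among the most changed, and the last 3 at changed members without the run.
RPL21: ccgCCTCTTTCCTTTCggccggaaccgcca
RPLP1: ggcgcgagagCCCCTTTCCTCagctgccgc
RPL39: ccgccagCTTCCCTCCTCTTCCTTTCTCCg
RPL22: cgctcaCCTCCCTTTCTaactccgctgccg
RPL13A: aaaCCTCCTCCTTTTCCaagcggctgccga
RPL14: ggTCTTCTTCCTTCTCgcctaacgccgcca
RPS4X: ctccagccccaatttctacgcgcaccggaa
RPL9: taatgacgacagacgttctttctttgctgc
RPL10L: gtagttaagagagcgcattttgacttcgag
The window of RPL21 is chr13:27251548-27251577 on the plus strand, and that of RPLP1 is chr15:69452808-69452837 on the plus strand. The window of RPL39 is chrX:119791611-119791640 on the minus strand, and that of RPS4X is chrX:72277229-72277258 on the minus strand. A C at the start followed by at least 4 letters that are each C or T, read on the strand of the gene only, was found in 43 of the 66 members with a promoter entry (65.2%). Of all 27305 genes in the table, 1104 had such a start (4.04%), and of 10822 genes tested for expression, 578 (5.34%).

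Ribosomal protein genes took a larger share of all gene counts in MR49F than in LNCaP and a smaller one in C4-2. The share was 2.42%, 2.57% and 2.44% in the LNCaP libraries, 2.82%, 2.75% and 2.73% in MR49F, and 2.34%, 1.85% and 1.84% in C4-2. The MR49F libraries lay above all others, and the C4-2 libraries below all LNCaP libraries. Line means were 2.48% ± 0.0817 (SD, n = 3), 2.77% ± 0.0492 and 2.01% ± 0.286. Without C4-2 replicate 1 the C4-2 mean was 1.84%. Pseudogenes named after the members held a further 1.46%, 1.59% and 1.09% of counts in LNCaP, MR49F and C4-2. No p is given for these sums.

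**Figure D1:**
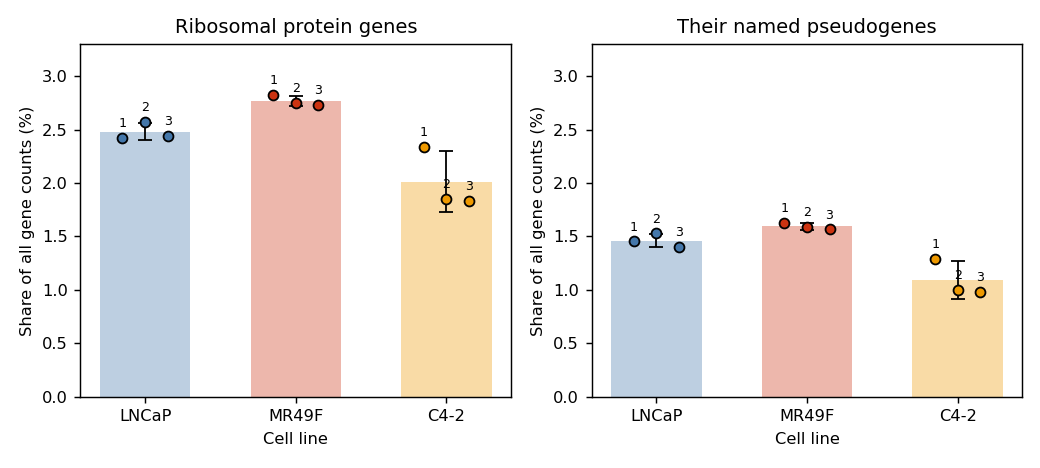
Share of all gene counts (%) on the ribosomal protein genes (left) and on their named pseudogenes (right) for each cell line; points are libraries numbered by replicate, bars are means and error bars SD (n = 3). MR49F is highest in both panels, and C4-2 replicate 1 lies above the other C4-2 libraries.

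Levels of different members were compared only per length, as CPM per kilobase of merged GENCODE 29 exons averaged over the 9 libraries. RPS6, the small-subunit protein that S6 kinases phosphorylate, was highest at 466 CPM per kilobase. RPL8 and RPL27 followed, each at 338, and RPS4X at 312. RPL7 was among the lowest core genes at 5.14 CPM per kilobase. The order depends on the length used: on the principal transcript RPL27, at 937, was above RPS6, at 912.

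RPL7 had 97.7% of its combined counts on pseudogenes. Processed pseudogenes are reverse-transcribed copies of a message set back into the genome, and ribosomal protein genes have many. The table held 1587 genes named as pseudogenes of a member, 580 of them with a count. More than 50% of the combined counts lay on pseudogenes for 26 members, and over 90% for 9 of them (among which RPL7, RPS27, RPL39, RPS28, RPL23A, RPS7, RPL36A and RPS18). For 40 members the share was under 5%, among them RPLP1 at 0.801% and RPS4X at 1.74%. How reads that match both a gene and its copies were assigned is not given in the sources used here, so the levels of members with a high share are uncertain. A further limit is that 35 members have exons that overlap another gene on the same strand.

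**Figure D2:**
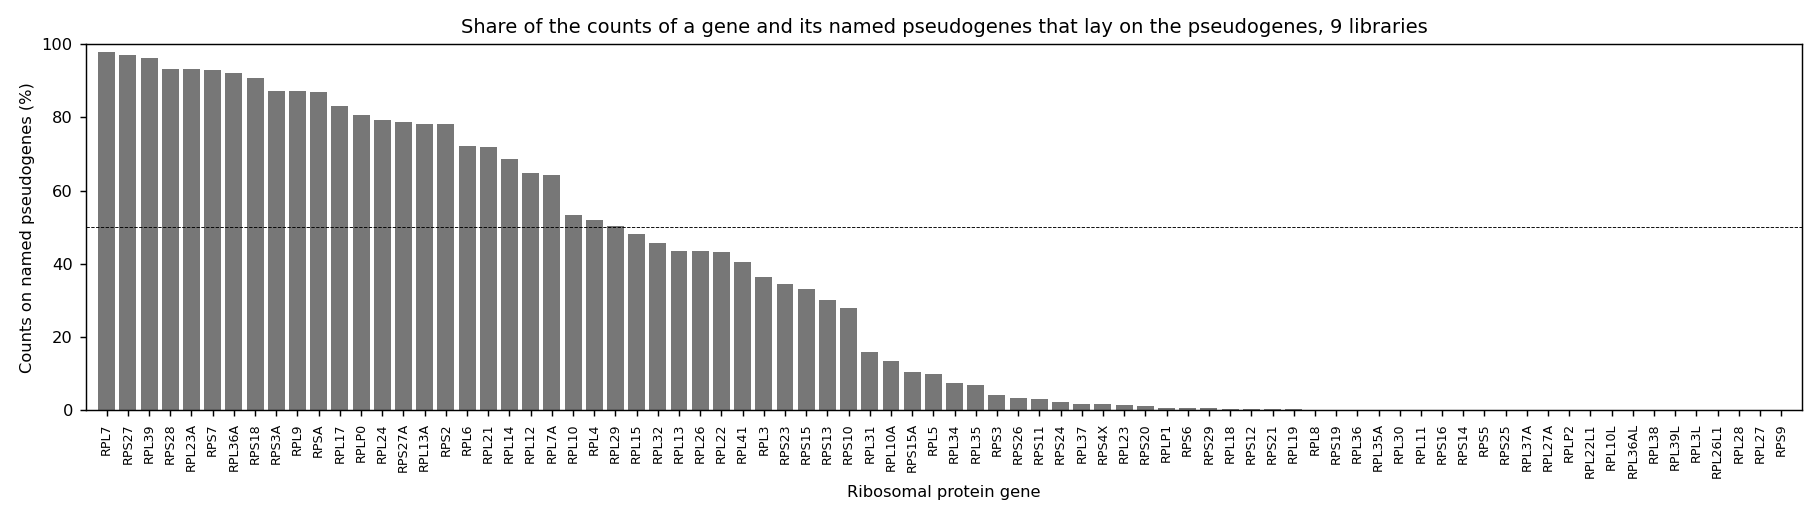
Percentage of the combined counts of a ribosomal protein gene and its named pseudogenes that lay on the pseudogenes, over 9 libraries, for 80 members; the dashed line is at 50%. RPL7 is highest at 97.7%, and RPLP1 and RPS4X are near 0.

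MR49F had higher messages than LNCaP for most ribosomal protein genes, by modest amounts. Of the 81 members with enough counts to test, 43 rose, 5 fell and 33 did not pass the test (edgeR quasi-likelihood test, Benjamini-Hochberg adjusted p under 0.05 over 15407 genes). Of all genes tested, 24.1% rose and 22.8% fell. The median log2 fold change of the members was 0.26, with quartiles of 0.06 and 0.35, beside a median of 0.01 over all genes with quartiles of -0.33 and 0.30. In the large subunit 29 of 50 rose and 4 fell, and in the small subunit 14 of 31 rose and 1 fell. Only RPL21, RPLP1 and RPL39 rose more than 2-fold. The count of members that rose fell to 26 without LNCaP replicate 1, 24 without LNCaP replicate 3 and 27 without MR49F replicate 3, with medians between 0.23 and 0.25. The 5 that fell became 3 without LNCaP replicate 2, 9 without C4-2 replicate 1 and 12 when only the 6 libraries of this comparison were fitted.

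**Figure D3:**
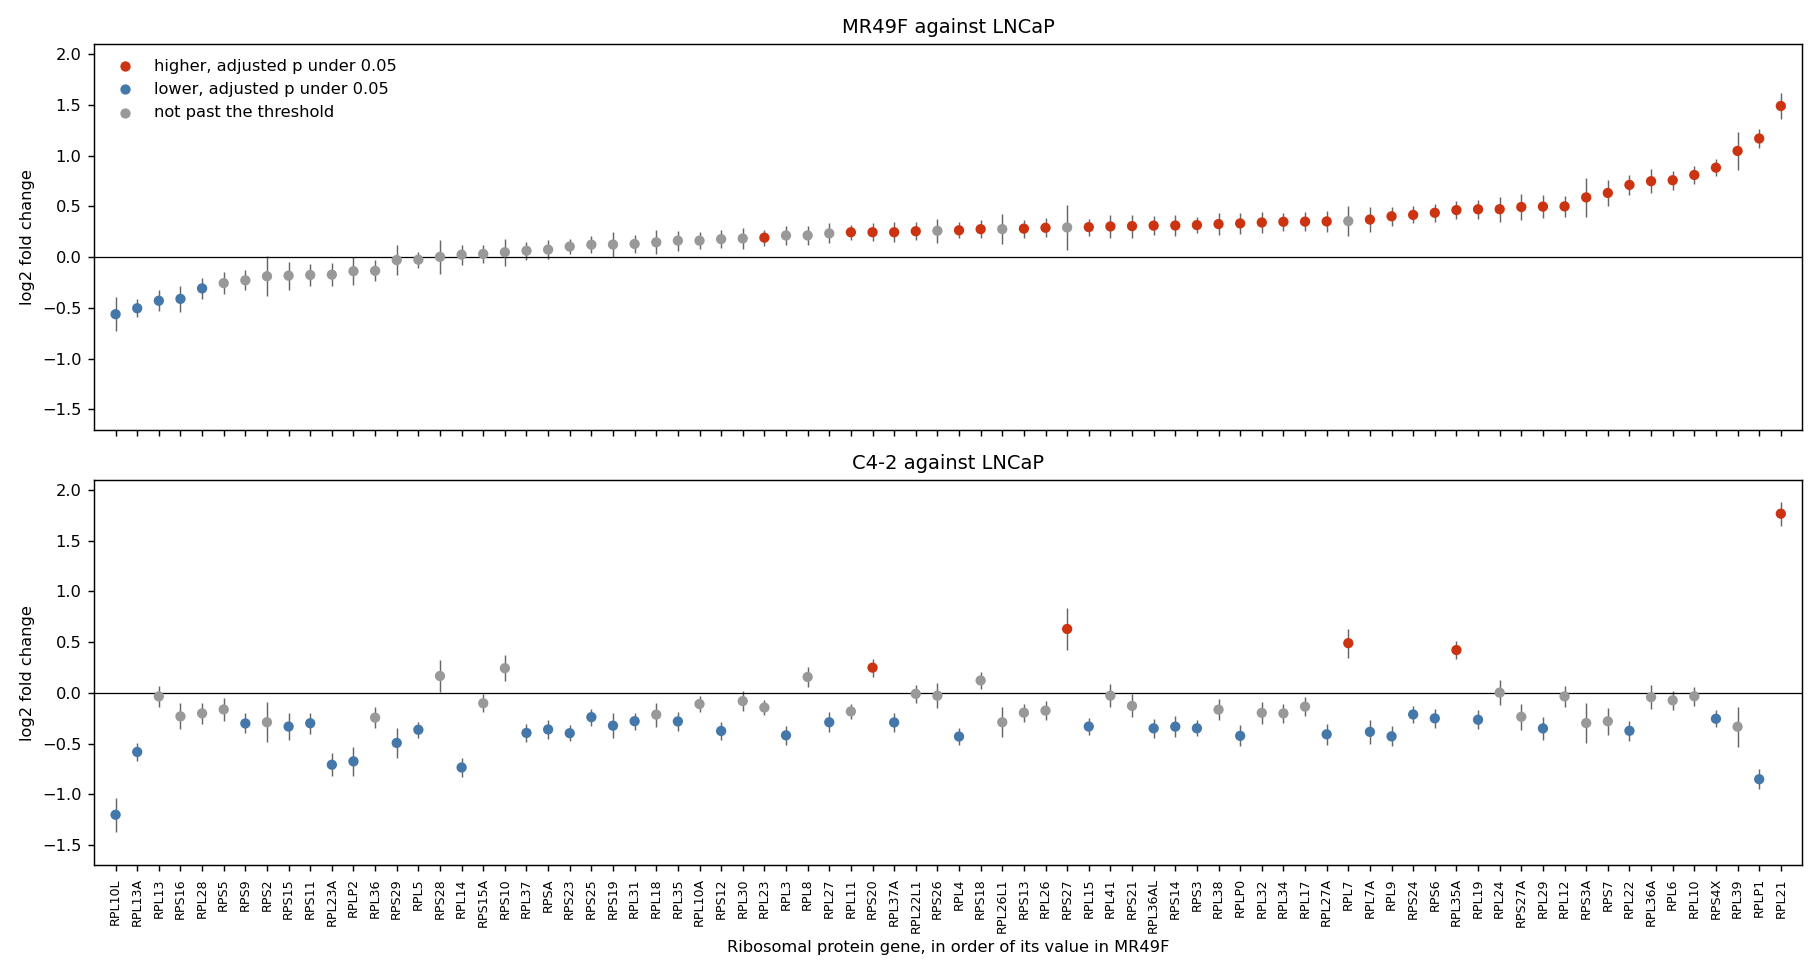
Log2 fold changes of 78 tested ribosomal protein genes in MR49F (top) and C4-2 (bottom) against LNCaP, in the same gene order; error bars are standard errors and colours show the edgeR call. Most values lie above 0 in MR49F and below 0 in C4-2, with RPL21 high in both; both panels use the same LNCaP libraries.

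The acidic stalk of the large subunit, which recruits elongation factors, is built from RPLP0, RPLP1 and RPLP2. RPLP1 (ENSG00000137818, chromosome 15, 69452784 to 69456194, GRCh38) was at 165, 159 and 156 CPM in the LNCaP libraries, 363, 365 and 353 in MR49F, and 101, 70.5 and 93.3 in C4-2. The 3 lines did not overlap, with MR49F highest and C4-2 lowest. The log2 fold change was 1.17 ± 0.0973 (SE) in MR49F (edgeR adjusted p = 3.61e-09) and -0.85 ± 0.0993 in C4-2 (adjusted p = 5e-07). RPLP0, the stalk base, moved the same way by less, 0.33 in MR49F (adjusted p = 0.0119) and -0.42 in C4-2 (adjusted p = 0.002). Pseudogenes held 80.7% of its combined counts, and with them added its changes were 0.33 and -0.62. RPLP0 lost a call against LNCaP when LNCaP replicate 3 was left out. RPLP2, the partner of RPLP1, fell in C4-2 by 0.67 (adjusted p = 0.000842). In MR49F it had 299.5, 297 and 443 CPM against 355, 415 and 376 in LNCaP, which overlap, and its log2 fold change was -0.14 (adjusted p = 0.442). Without MR49F replicate 3, its highest library, RPLP2 was lower in MR49F (-0.37, adjusted p = 0.0168). RPLP0 is named for its role and was chosen after its values were seen.

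RPL21 (ENSG00000122026, chromosome 13, 27251309 to 27256691), a large-subunit protein, had the highest fold change of any member in both derivatives. Its level was 10.5, 9.43 and 9.65 CPM in LNCaP, 27.1, 25.6 and 30.3 in MR49F, and 36.3, 29.99 and 33.5 in C4-2. Every library of the derivatives was above every LNCaP library. The log2 fold change was 1.49 ± 0.124 in MR49F (adjusted p = 3.74e-09) and 1.77 ± 0.12 in C4-2 (adjusted p = 1.43e-10). RPL21 has 133 named pseudogenes, which held 72.0% of the combined counts. With their counts added, the changes were 1.22 and 1.33.

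All 4 members on the X chromosome rose in MR49F. RPS4X (ENSG00000198034, chromosome X, 72255679 to 72277300), a small-subunit protein, was at 724, 783 and 767 CPM in LNCaP, 1428, 1410 and 1350 in MR49F, and 726, 589 and 589 in C4-2. MR49F lay far above both other lines, which overlapped each other. Its log2 fold change was 0.88 ± 0.0832 in MR49F (adjusted p = 2.49e-08). RPL39, a small protein of the peptide exit tunnel, had 16.2, 19.6 and 17.2 CPM in LNCaP and 32.1, 30.3 and 47.4 in MR49F, a log2 fold change of 1.05 ± 0.19 (adjusted p = 0.000199). MR49F replicate 3 was the high one, and the groups did not overlap. RPL10, needed for joining of the subunits, rose by 0.81 (adjusted p = 3.59e-07) and RPL36A by 0.75 (adjusted p = 2.67e-05) on the log2 scale. RPL39 and RPL36A have 96.1% and 92.0% of their combined counts on pseudogenes. The most counted copies, RPL39P3 on chromosome 6 and RPL10P16 on chromosome 19, had log2 fold changes of 0.93 and 0.71 in MR49F.

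Among the other members that rose in MR49F, RPL22, an RNA-binding protein of the large subunit, increased by 0.71 ± 0.096 on the log2 scale (adjusted p = 3.74e-06), from 113, 111 and 115 CPM to 170, 185 and 200 CPM. RPL6 rose by 0.76 (adjusted p = 1.41e-06) as deposited. With pseudogene counts added its change was 0.18 (adjusted p = 0.13). Its most counted copy, RPL6P27, had a log2 fold change of -0.04. The call for RPL6 therefore holds for the row of the gene and not for the sum.

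The 5 that fell in MR49F were RPL10L, RPL13A, RPL13, RPS16 and RPL28. RPL13A, a large-subunit protein also known for a role in silencing inflammatory messages, had 432, 485 and 455 CPM in LNCaP, 332, 320 and 315 in MR49F, and 356, 279 and 279 in C4-2. Both derivatives lay below all LNCaP libraries. It fell by 0.50 in MR49F (adjusted p = 9.18e-05) and by 0.58 in C4-2 (adjusted p = 1.65e-05), and MR49F and C4-2 overlapped. RPL13 fell by 0.43 (adjusted p = 0.00173), RPS16 by 0.41 (adjusted p = 0.0146) and RPL28 by 0.31 (adjusted p = 0.0201) in MR49F. RPS16 no longer passed with MR49F replicate 3 left out (adjusted p = 0.0826). RPL28 no longer passed with LNCaP replicate 2 left out (adjusted p = 0.0698) or MR49F replicate 3 left out (adjusted p = 0.123). The smallest changes in MR49F were those of RPS28 (0.00, adjusted p = 0.994) and RPL14 (0.02, adjusted p = 0.865). When pseudogene counts were added, RPS28 fell by 0.38 (adjusted p = 0.0124) and RPL14 stood at 0.19 (adjusted p = 0.0836).

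**Figure D4:**
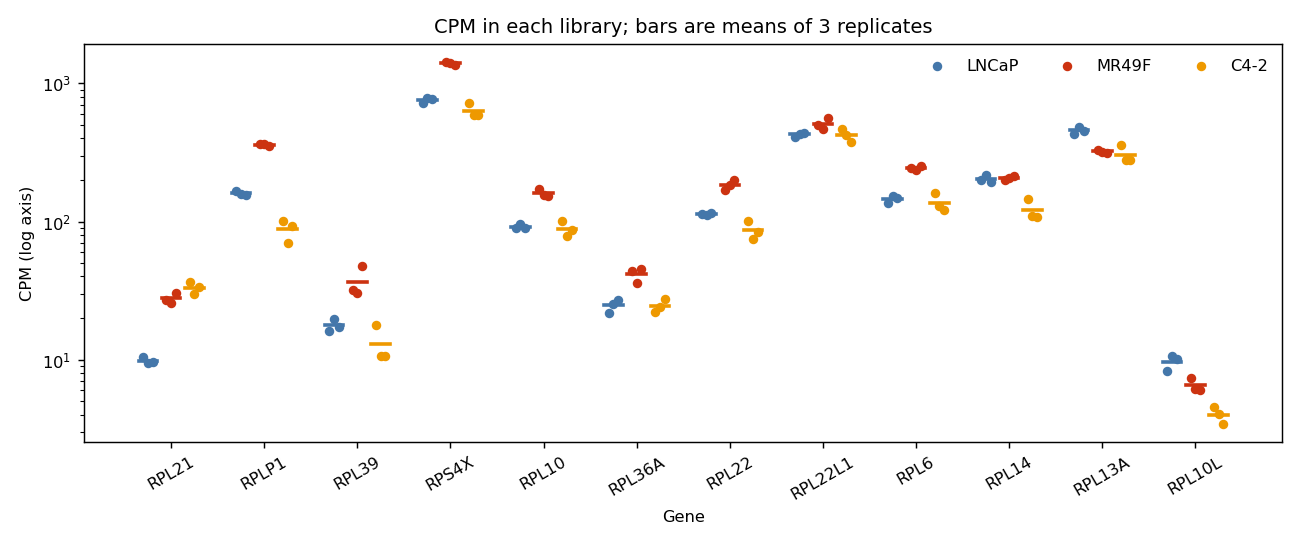
CPM (log axis) of 12 ribosomal protein genes in each library of LNCaP, MR49F and C4-2; points are libraries and short bars are means (n = 3). RPLP1 and RPS4X are highest in MR49F, RPL21 is lowest in LNCaP, and RPL14 is lower in C4-2 than in the other lines.

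C4-2 had lower messages than LNCaP for many ribosomal protein genes. Of 81 members 38 fell, 5 rose and 38 did not pass the test, where 23.5% of all tested genes fell and 26.2% rose. The median log2 fold change was -0.25, with quartiles of -0.35 and -0.08, beside a median of 0.00 over all genes. In the large subunit 23 of 50 fell and 3 rose, and in the small subunit 15 of 31 fell and 2 rose. Without C4-2 replicate 1, which stood apart, 62 members fell and 2 rose, with a median of -0.39. The number that fell was 24 without C4-2 replicate 2, 21 without C4-2 replicate 3 and 23 without LNCaP replicate 2, and the number that rose was 8, 5 and 3 in the same order and 3 without LNCaP replicate 3.

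RPL14, a large-subunit protein (ENSG00000188846, chromosome 3, 40457292 to 40468587), was at 200, 217 and 193 CPM in LNCaP, 200, 206 and 213 in MR49F, and 145, 110 and 108 in C4-2. The C4-2 libraries lay below all others, and LNCaP and MR49F overlapped. It fell in C4-2 by 0.73 ± 0.098 on the log2 scale (adjusted p = 2.94e-06). With its pseudogenes, which held 68.7% of the combined counts, the change was -0.51 (adjusted p = 6.08e-05). RPL23A, which sits at the mouth of the exit tunnel, fell by 0.71 (adjusted p = 3.49e-05). With its pseudogenes, which held 93.2% of the combined counts, the change was -0.41 (adjusted p = 0.00233). RPL4, whose loop lines that tunnel, fell by 0.43 (adjusted p = 0.000139) and RPL9 by 0.43 (adjusted p = 0.00112). For RPL9 the change was -0.695 (adjusted p = 4.99e-06) with pseudogene counts added. RPS29 fell by 0.49 (adjusted p = 0.0107), from 155, 199 and 174 CPM to 160, 102 and 108, which overlap in C4-2 replicate 1, and without that library it fell by 0.74 (adjusted p = 6.3e-07). RPL5, which with RPL11 and 5S ribosomal RNA forms a particle that restrains MDM2, fell by 0.36 on the log2 scale (adjusted p = 0.000555). RPL11 stood at -0.18 on that scale in C4-2 (adjusted p = 0.0535) and rose by 0.24 in MR49F (adjusted p = 0.0123). RPL5 and RPL11 were chosen after their values were seen.

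The 5 members that rose in C4-2 were RPL21, RPS27, RPL7, RPL35A and RPS20. RPL35A, a large-subunit protein altered in some families with Diamond-Blackfan anaemia, was at 563, 615 and 570 CPM in LNCaP, 827, 792 and 791 in MR49F, and 917, 699 and 725 in C4-2. Both derivatives were above all LNCaP libraries. The log2 fold change was 0.42 ± 0.0894 in C4-2 (adjusted p = 0.00054) and 0.46 ± 0.0895 in MR49F (adjusted p = 0.000242). RPL7 rose by 0.49 (adjusted p = 0.00754), which did not hold with LNCaP replicate 2 (adjusted p = 0.0502) or C4-2 replicate 1 (adjusted p = 0.0956) left out. With pseudogene counts added its log2 fold change was -0.08 (adjusted p = 0.498). RPS27, under 10 CPM in every library and chosen after its value was seen, rose by 0.63 (adjusted p = 0.0159). With pseudogene counts added its value was -0.05 (adjusted p = 0.749). RPS20 rose by 0.25 (adjusted p = 0.0234), a call lost without C4-2 replicate 1 (adjusted p = 0.126) and without any 1 of the LNCaP libraries. The smallest changes were those of RPL24 (0.00, adjusted p = 0.988) and RPL22L1 (-0.01, adjusted p = 0.943).

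Set directly against each other, the derivatives differed in more members than either did from LNCaP, and the same held over all tested genes. In MR49F 60 of 81 members were higher than in C4-2 and 2 were lower, where 29.9% of all tested genes were higher and 31.1% lower. The median log2 difference was 0.47, beside 0.00 over all genes. RPLP1 differed most, by 2.02 ± 0.1 (adjusted p = 4.71e-13), followed by RPL39 at 1.38 (adjusted p = 4.52e-06), RPS4X at 1.14 (adjusted p = 2.88e-10) and RPL22 at 1.08 (adjusted p = 5.24e-09). The lower members were RPL13 at -0.40 (adjusted p = 0.00218; -0.22 and 0.00782 without C4-2 replicate 1) and RPL21 at -0.28 (adjusted p = 0.0276). RPL21 overlapped between these lines and lost its call under DESeq2 (adjusted p = 0.0563), without C4-2 replicate 1 (adjusted p = 0.135), without C4-2 replicate 3 (adjusted p = 0.0523), and without MR49F replicate 1 (adjusted p = 0.0892) or 2 (adjusted p = 0.131). Its difference with pseudogene counts added was -0.10 (adjusted p = 0.474). The number higher ranged from 55 to 69 when single libraries were left out. The number lower became 6 without C4-2 replicate 2, and 1 without MR49F replicate 1, MR49F replicate 2 or C4-2 replicate 1.

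For 6 core genes there is a further copy among the members. The share of a copy is given in counts of the gene rows only, not per length and without pseudogenes. Pseudogenes held 43.1% of the combined counts of RPL22, 92.0% of those of RPL36A, 43.5% for RPL26 and 53.4% for RPL10. The shares therefore depend on how reads were assigned. RPL22L1, the paralog of RPL22, held 79.1% ± 0.517 (SD, n = 3) of the pair's counts in LNCaP, 73.3% ± 1.53 in MR49F and 83.1% ± 1.66 in C4-2, and the ranges of the lines did not overlap. RPL22L1 itself was at 412, 428 and 440 CPM in LNCaP, 501, 468 and 558 in MR49F, and 471, 421.2 and 378 in C4-2. It rose by 0.25 in MR49F (adjusted p = 0.02), beside 0.71 for RPL22, and did not pass when any 1 LNCaP library or MR49F replicate 3 was left out. RPL36AL held 88.1%, 84.6% and 85.2% of the counts it shares with RPL36A in LNCaP, MR49F and C4-2. It rose by 0.31 in MR49F (adjusted p = 0.00788) and fell by 0.35 in C4-2 (adjusted p = 0.00324), and the first did not hold with LNCaP replicate 1 left out (adjusted p = 0.0549).

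RPL10L, an intronless copy of RPL10 known for its expression in testis, was at 8.22, 10.7 and 10.1 CPM in LNCaP, 7.33, 6.18 and 5.99 in MR49F, and 4.51, 4.05 and 3.43 in C4-2. The lines did not overlap, with LNCaP highest and C4-2 lowest. It fell by 0.56 in MR49F (adjusted p = 0.00948) and by 1.20 in C4-2 (adjusted p = 5.73e-06), while RPL10 rose in MR49F. The MR49F call did not hold with LNCaP replicate 2 left out (adjusted p = 0.0506). RPL10L shares sequence with RPL10 and its level is uncertain for that reason. RPL26L1 held 7.23%, 7.19% and 6.38% of the counts it shares with RPL26, and did not pass the test against LNCaP in either derivative (0.28, adjusted p = 0.133, and -0.29, adjusted p = 0.111). Without C4-2 replicate 1 it was lower in C4-2 (-0.55, adjusted p = 0.00324). RPL39L had 1 count in the 9 libraries and RPL3L had too few to test, the 2 members that were not tested. RPL3, the core partner of RPL3L, fell in C4-2 by 0.42 (adjusted p = 0.000885).

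Changes of the members went with those of the genes around them. For each member the median log2 fold change of other tested genes within 5 Mb was taken, without members or their pseudogenes. Across the 81 members, its correlation with the change of the member was r = 0.688 (Spearman 0.526) in MR49F and r = 0.602 (Spearman 0.362) in C4-2, and without RPL21 0.643 and 0.328. These are descriptions, since members on 1 chromosome share neighbours and all share libraries. On the X chromosome the other 544 tested genes had a median of 0.54 in MR49F and 64.2% of them rose, beside 0.85 for the 4 members. On chromosome 19 none of the 12 members rose in MR49F and 3 fell, with a median of -0.19, while the other 1044 genes had a median of -0.32 and 48.0% of them fell. RPL21 lies among 36 neighbours whose median was 0.67 in MR49F and 1.24 in C4-2. RPL13 on chromosome 16 had neighbours at -0.38 in MR49F.

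Other members stood off their neighbourhood. RPLP1 had 75 neighbours with medians of 0.01 in MR49F and -0.14 in C4-2, beside its own changes of 1.17 and -0.85. Over all members the change of the member exceeded that of its neighbours by a median of 0.22 in MR49F and lay below it by a median of -0.24 in C4-2. The part of gene dosage in these values was not tested.

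**Figure D5:**
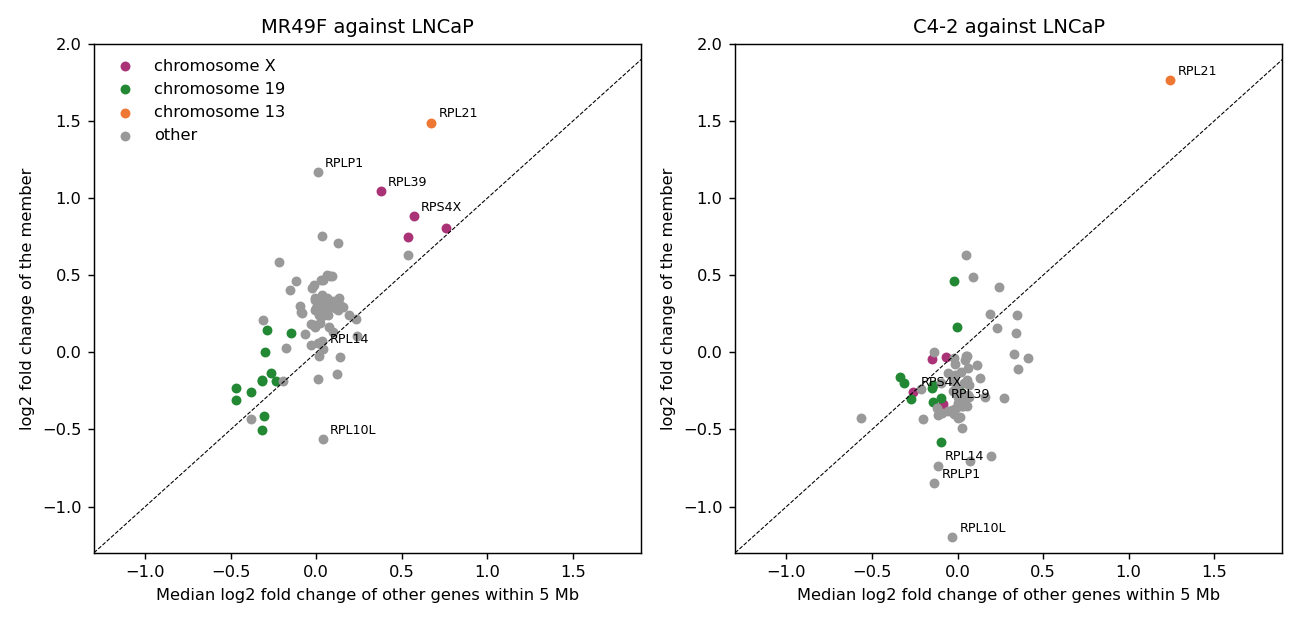
Log2 fold change of each tested ribosomal protein gene against the median log2 fold change of other genes within 5 Mb, for MR49F (left) and C4-2 (right) against LNCaP; colours mark chromosomes 13, 19 and X, and the dashed line marks equal values. The X members lie to the upper right in MR49F, chromosome 19 members to the lower left, and RPLP1 lies far from the line in both panels.

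Members rose in MR49F and fell in C4-2 both with and without the pyrimidine start as defined above. Of the 43 with it, 26 rose and 3 fell in MR49F, and 3 rose and 22 fell in C4-2. Of the 23 without it, 13 rose and 2 fell in MR49F, and none rose and 11 fell in C4-2. Medians were 0.29 and 0.28 in MR49F and -0.25 and -0.26 in C4-2. Of all tested genes 24.1% rose and 22.8% fell in MR49F, and 26.2% rose and 23.5% fell in C4-2. The definition depends on the annotated start. RPL36AL, RPL3 and RPS7 count as without it but have a run of C and T across the start, and RPL9 has one a few bases on. The groups therefore do not cleanly separate members with and without a tract. RPS4X and RPL10L, printed above without the run, were among the most changed. The members least touched by pseudogenes showed the same directions. Of the 38 tested with under 5% of counts on pseudogenes, 19 rose and 3 fell in MR49F and 2 rose and 21 fell in C4-2.

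FAU, which encodes a small-subunit protein fused to a ubiquitin-like protein, had log2 fold changes of 0.16 (adjusted p = 0.217) in MR49F and -0.04 (adjusted p = 0.763) in C4-2. Without C4-2 replicate 1 both passed the test, at 0.16 (adjusted p = 0.034) and -0.21 (adjusted p = 0.018), and the first also passed with only the 6 libraries compared (0.14, adjusted p = 0.0492). RPS27L, a relative of RPS27 induced by p53, fell in both (-0.46, adjusted p = 0.000251, and -0.42, adjusted p = 0.00052). RPL7L1, a relative of RPL7, rose in C4-2 by 0.55 (adjusted p = 4.37e-06).

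Counts of the following lists stand beside 24.1% of all tested genes that rose and 22.8% that fell in MR49F, and 26.2% and 23.5% in C4-2. Many translation factors also have messages with a pyrimidine start. Of 13 tested on that list, 4 rose and 1 fell in MR49F, and 5 fell and none rose in C4-2, with medians of 0.15 and -0.13. NAP1L1, a histone chaperone with such a message, rose by 1.30 in MR49F (adjusted p = 4.41e-11), and TPT1 fell in both (-0.59, adjusted p = 7.15e-06, and -0.56, adjusted p = 1.37e-05). Of 28 genes for ribosome assembly, 11 rose and 3 fell in MR49F, and 15 fell and none rose in C4-2. DKC1, the pseudouridine synthase of small nucleolar particles, rose in MR49F by 0.63 (adjusted p = 4.36e-07). UTP20 fell in both derivatives (-0.29, adjusted p = 0.0347, in MR49F and -0.71, adjusted p = 1.85e-05, in C4-2), as did PES1 (-0.35, adjusted p = 0.00205, and -0.40, adjusted p = 0.000491). Of 11 genes for RNA polymerase I, 3 rose and 1 fell in MR49F and 3 rose and 7 fell in C4-2. POLR1D, on chromosome 13 like RPL21, rose by 1.16 and 1.23 (adjusted p = 3.29e-10 and 1.13e-10).

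Of 17 genes that control ribosomal protein messages, 3 rose and 4 fell in MR49F, and 2 rose and 8 fell in C4-2, beside the same shares of all genes (24.1% and 22.8%, and 26.2% and 23.5%). MYC, which drives ribosome production, rose in MR49F by 0.52 (adjusted p = 5.39e-06) and fell in C4-2 by 0.59 (adjusted p = 1.15e-06). MTOR fell in both, by 0.38 in MR49F (adjusted p = 0.00197) and by 0.62 in C4-2 (adjusted p = 1.43e-05). DEPTOR, an inhibitor of mTOR, rose in C4-2 by 1.497 (adjusted p = 2.05e-09). The other gene of this list that rose in C4-2 was RHEB, by 0.64 (adjusted p = 9.81e-05). LARP1 fell in C4-2 by 0.32 (adjusted p = 0.00172). In MR49F it stood at 0.17 on the log2 scale (adjusted p = 0.0842), and it passed with only the 6 libraries compared (0.15, adjusted p = 0.0192) and without C4-2 replicate 1 (0.17, adjusted p = 0.0136). Of 12 host genes of small nucleolar RNAs, whose transcripts often carry pyrimidine starts, 9 rose and none fell in MR49F, and 2 rose and 5 fell in C4-2. SNHG16 rose by 0.56 in MR49F (adjusted p = 8.38e-06), and ZFAS1 fell by 0.65 in C4-2 (adjusted p = 3.26e-06).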

How the data were processed

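The authors deposited raw counts by Ensembl gene, 1 column per library. The tools listed in the submitters' processing notes, with no role given, are TopHat2, HTSeq 0.6.1, FastQC 0.11.3 and edgeR 3.12.1, and the build is GRCh38.p12. Libraries were made with a stranded kit, per the labels' protocols. The annotation release and strand setting of the counting are not given in these sources. A further 3 columns matched no sample title and were not used. Of 57992 IDs, 57388 matched GENCODE 29 and 56948 a table of gene names. Members and lists were chosen with earlier results of these data known.

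All 9 libraries were fitted with edgeR 4.0.16 in R 4.3.3 (TMM, filterByExpr by line, robust quasi-likelihood test, 1 mean per line, 6 residual degrees of freedom). It covered 15407 genes with a common biological coefficient of variation of 0.0817. Adjusted p under 0.05 counted as changed, and standard errors are the absolute log2 fold change over the square root of F. P-values measure the spread between these libraries. Members were named by a rule: up to 8 in each direction against LNCaP (4 between the derivatives) by size of change among those called with at least 10 CPM, the smallest changes, the copies, and the highest and lowest per length; from each list, up to 3 by adjusted p and 1 uncalled.

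The test was tested on simulated data. For MR49F against LNCaP, 15407 genes were simulated and 15052 were left after the filter. The test recovered 20%, 64%, 84% and 96% of changes of 1.25, 1.5, 2 and 4-fold and made 7 false calls. For C4-2 against LNCaP, with 15068 left, it recovered 28%, 64%, 92% and 100% and made 8 false calls. Changed genes that the filter removed counted as missed. The simulation gave all genes 1 common spread, drew changed genes from all genes, and had no library that stood apart like C4-2 replicate 1. These rates therefore do not describe the test on the members or on the real C4-2 libraries. Alternatives were RLE and upper-quartile scaling, TMM without the members, DESeq2 1.42.0, voom of limma 3.58.1, other filters, 6 libraries only, a replicate block, a 1.5-fold test, thinning of C4-2 replicate 1 and leaving out each library. Adding pseudogene counts and the principal transcript length were chosen after seeing the data. Start sequences came from RefSeq (GRCh38.p14), where 66 of 83 members matched. Some genes are counted in the totals but not reported by name here. Figures were drawn with matplotlib 3.10.9.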

Additional observations from a re-analysis of the deposited data

Results flagged for a closer look

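For 17 members reported by name the change from LNCaP went in opposite directions, up in MR49F and down in C4-2. Of all 15407 tested genes 24.1% rose in MR49F and 23.5% fell in C4-2, and the share that did both was not counted. The difference between the derivatives passed the edgeR test for each of the 17 (adjusted p from 4.71e-13 to 7.26e-05). That difference combines both changes, so its passing was nearly fixed by the choice of these members and is no separate support. No tested member fell in MR49F and rose in C4-2. Both comparisons use the same LNCaP libraries. The log2 differences of MR49F over C4-2 were 2.02 for RPLP1, 1.14 for RPS4X and 1.08 for RPL22. They were 0.85 for RPL29, 0.83 for RPL9, 0.76 for RPL27A, 0.75 for RPL7A, 0.75 for RPLP0 and 0.73 for RPL19. They were 0.69 for RPL4, 0.69 for RPS6, 0.66 for RPL36AL, 0.66 for RPS3, 0.64 for RPS14, 0.63 for RPL15, 0.63 for RPS24 and 0.54 for RPL37A. The difference between the derivatives passed for all 17 whichever single library was left out, which the choice of these members also made likely. Their calls against LNCaP were less stable: RPLP1, RPL22, RPL9 and RPS3 kept both whichever library was left out, and the other 13 lost at least 1. All 17 kept both calls without C4-2 replicate 1, and 8 did so without LNCaP replicate 3, the lowest number. With pseudogene counts added, the rises of RPL15 (0.19, adjusted p = 0.0907) and RPL37A (0.23, adjusted p = 0.0613) in MR49F no longer passed.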

How the results depend on the processing

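Counts that rose and fell are given in that order. In MR49F against LNCaP (43 and 5), 12 fell with only the 6 libraries compared, and a test against a 1.5-fold change called 5 and 0. Leaving out single libraries gave 24 to 52 and 3 to 9. In C4-2 against LNCaP (5 and 38) the 1.5-fold test called 1 and 2, and adding pseudogene counts gave 3 and 46. Leaving out libraries there gave 2 to 8 and 21 to 62. In MR49F against C4-2 (60 and 2) the 1.5-fold test called 9 and 0, and DESeq2 called 59 and 1. No count filter gave 59 and 4, adding pseudogene counts 61 and 1, and leaving out libraries 55 to 69 and 1 to 6. Without a count filter the median of all genes shifted to 0.10 in C4-2 against LNCaP and to -0.16 in MR49F against C4-2. With the replicate block the counts were 42 and 7, 5 and 39, and 60 and 3. Same-numbered libraries did not visibly deviate together (correlations -0.0832 to 0.0562), and not every library correlated best with its own number. The main fit therefore did not pair them. Such small correlations cannot decide whether the numbers mark a shared batch.

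The share of counts was 2.84%, 3.23% and 2.42% in LNCaP, MR49F and C4-2 without the 100 other genes of highest count, and 3.94%, 4.36% and 3.10% with pseudogenes. Leaving out libraries gave 2.43% to 2.51%, 2.74% to 2.79% and 1.84% to 2.096%. On principal transcripts, CPM per kilobase was 912 for RPS6, 701.6 for RPL8, 937 for RPL27, 609 for RPS4X and 13.6 for RPL7.

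Among members named by the rule, 3 values with a call in either setting reversed direction when pseudogene counts were added. RPS28 did so in MR49F against LNCaP (-0.38, adjusted p = 0.0124). RPL7 did so in C4-2 against LNCaP (-0.0785, adjusted p = 0.498) and in MR49F against C4-2 (0.27, adjusted p = 0.0143). RPS27, outside that rule, also reversed in C4-2 against LNCaP, from 0.63 to -0.05. Some uncalled values changed sign as well, such as RPL23A in MR49F against LNCaP, from -0.17 to 0.08. Among the values of genes named by the rule under the alternatives, 2860 kept their call or lack of one, and 128 lost a call. A further 54 gained one, and the 3 given above reversed. Values uncalled in both settings could change sign within the 2860. The cause was not tested. With 3 libraries a line, small changes were often missed in simulated data.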
